A study of Mus musculus with 33 samples.

Results

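Whole mouse kidneys that carried 1 intact copy of Six2 instead of the usual pair were compared with wild-type kidneys at embryonic day 11.5 (E11.5). The members were every E11.5 library labelled heterozygous or wildtype for Six2: 12 of the 33 libraries, which came from 11 of the 24 specimens of the series. They comprised 6 wild-type embryos with 1 library each and 5 heterozygous embryos with 6 libraries. The reason is that 1 heterozygous embryo was run in both batches (the replicate number of the titles) and its runs were summed. Of the wild-type embryos 4 were female and 2 male, and of the heterozygous embryos 2 were female and 3 male. The other specimens of the series were 5 kidneys lacking both intact copies at E11.5 (knockout), and 4 wild-type and 4 heterozygous specimens at E15.5. The E15.5 specimens served only for comparison. The knockouts were compared too, but they also entered the fit of all 16 E11.5 embryos and its estimate of the spread. The labels give genotype, age and sex but neither the strain nor the construct of the Six2 allele. The titles of some E15.5 heterozygous libraries carry the letters GCE, which the labels do not explain. The labels also do not say whether every specimen was a separate animal, and p-values here reflect only how much the specimens vary.

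Six2 is a homeodomain transcription factor of the cap mesenchyme, the cells that surround the tips of the branching ureteric bud and give rise to all nephrons. It holds these progenitors in an undifferentiated, self-renewing state, and in its absence they form nephron vesicles too early and run out. At E11.5 the ureteric bud has just entered the metanephric mesenchyme and the cap is forming. Bulk RNA of a whole kidney mixes cap, bud, stroma, vessels and blood, so fewer cells of a type and less RNA per cell cannot be told apart.

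Library totals of the 11 embryos ran from 13439802 to 26231949 counts. The first principal component of the 11 embryos held 42.1% of the variance and separated the batches, and 8516 genes, 52.8% of those tested, differed between batches. In batch 1 the share of counts from ribosomal RNA genes was 20.5 to 26.6% in wild-type libraries and 3.57 to 18.7% in heterozygous ones. In batch 2 it was 0.223 to 0.357%. Heterozygous embryos of batch 1 were all male and those run only in batch 2 all female. Wild-type replicate 6 stood apart for neural genes, with Tubb3 at 98.2 CPM (counts per 1e+06 counts, here of the library total) against a median of 29.7 over the wild types. Kidney markers were present in wild-type kidneys, with medians of 126 and 89.4 CPM for the cap genes Eya1 and Sall1. The bud receptor gene Ret was at 60.4 and the stromal gene Foxd1 at 130.2. Of other tissues, the hindgut gene Cdx2 had 0 counts in all 11 embryos. The cartilage gene Col2a1, however, was at medians of 487 CPM in wild types and 444 in heterozygotes. The muscle gene Myod1 had 60 counts in heterozygous replicate 1 and at most 6 in any wild type. Pax3 reached 10.3 CPM in wild-type replicate 6, against a wild-type median of 0.962. Zic1 and Wnt7a had 215 and 270 counts there, and at most 2 and 1 in any heterozygote. The liver genes Afp and Alb were highest in wild-type replicate 4, at 9.79 and 3.67 CPM against wild-type medians of 0.382 and 0.131. The part of these genes of other tissues in the results was not tested.

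The targeted gene itself, Six2 (ENSMUSG00000024134, chromosome 17, 85684277 to 85688274, minus strand, mm10), followed the labels. In wild-type kidneys its lowest, median and highest levels were 19.1, 23.1 and 32.7 CPM on scaled library sizes, the scale of all CPM values from here on. Heterozygous replicates 1 to 5 had 13.9, 13.6, 16.7, 9.71 and 10.4 CPM. Every heterozygous kidney was below every wild-type kidney. The batches shifted both genotypes together, the batch 2 embryos being the lowest of the heterozygotes. The fitted heterozygous level was 51.3% of wild type (95% confidence interval 42.9 to 61.2; adjusted p = 0.00418, edgeR quasi-likelihood test over 16141 genes). An exact two-sided permutation test of log2 CPM gave p = 0.00216, the smallest that the 462 splits of the embryos allow; it exchanged embryos across batches and so takes no account of batch. Within batch 1 alone the log2 change was -0.95 and within batch 2 alone -0.95, although neither passed the adjusted threshold by itself. Around Six2, 12 other genes within 1 Mb on either side were tested. edgeR, DESeq2 and limma-voom each called 0 of them, with 2 at an unadjusted p under 0.05 in edgeR and a median log2 change of 0.01. The larger of these 2 by abundance, the predicted gene Gm29418, was at 3.58 CPM in wild types and 2.29 in heterozygotes (log2 -0.67 ± 0.29 SE, adjusted p = 0.572). In knockouts against wild types Gm29418 was lower (log2 -4.44, adjusted p = 3.39e-06, edgeR). The lowest adjusted p among the other neighbours in that comparison was 0.0879.

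The promoter window of Six2 is shown because the gene is the one whose copy number the genotypes change. RefSeq (GRCm38.p6) places it at chr17:85688205-85688504 on the minus strand, and it runs from 250 bases before to 50 after the start of transcription. It is written 5′ to 3′ and entirely in lower case, since no searched motif occurs in it.
Six2 promoter: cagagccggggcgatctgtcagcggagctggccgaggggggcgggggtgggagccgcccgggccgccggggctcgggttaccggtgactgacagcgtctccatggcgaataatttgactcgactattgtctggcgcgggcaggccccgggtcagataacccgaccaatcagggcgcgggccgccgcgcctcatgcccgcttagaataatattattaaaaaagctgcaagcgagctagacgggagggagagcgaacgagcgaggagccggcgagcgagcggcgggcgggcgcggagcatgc
Of the 11 genes that changed, listed with the genome-wide test, 7 have a promoter in the same RefSeq table: Esr1, Six2, Adh1, Cited1, Sema4g, Shisa2 and Moxd1. The binding site TCAGGTTTC of the Six2 family, sought on both strands, was in 0 of these 7 and in 0.472% of the 11226 tested genes with a promoter. A looser form that contains it, TCANGTTNC, was in 0 of 7 and 3.21%. These counts describe the letters of these short windows only.

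Across the genome, 11 of 16141 genes tested, 0.0681%, differed between heterozygous and wild-type kidneys at an adjusted p under 0.05. Of these, 9 were lower (0.0558% of genes tested) and 2 higher (0.0124%). The lower genes were Six2, the cap genes Cited1 and Crym, and Zmat4, Actn3, Dtna, Sema4g, Shisa2 and Moxd1. Adh1 and counts assigned to Esr1 were higher. All but Sema4g differed by at least 1.5-fold. In 7 of the 11 the embryo ranges of the genotypes did not overlap, which was so for 74 of all genes tested (0.458%). For comparison, the median log2 change over all genes tested was 0.01, 53.1% of genes were fitted higher in heterozygotes, and 1332 genes (8.25%) had an unadjusted p under 0.05. The median SE of a log2 change was 0.095, so that 95% intervals typically reached 0.20 to either side.

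**Figure D1:**
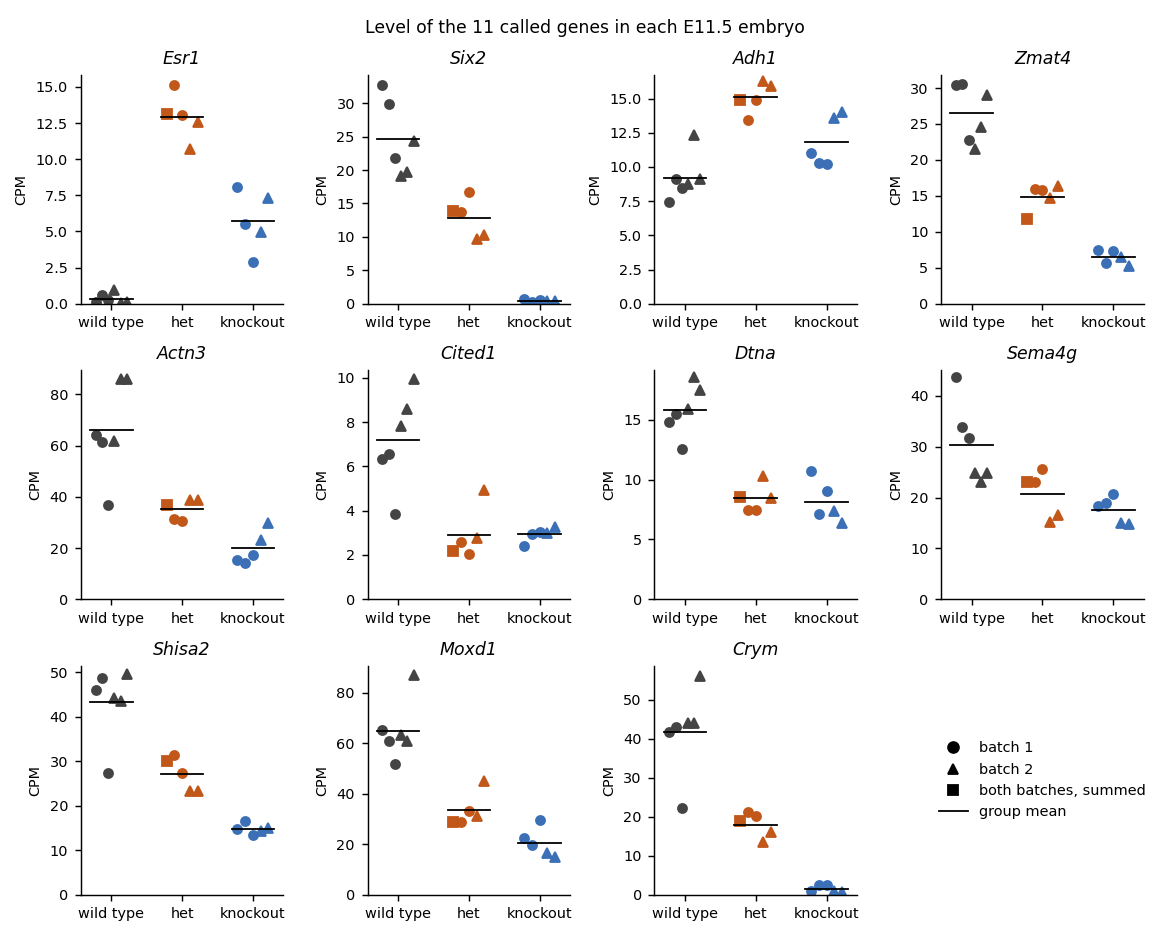
Level (CPM, linear axes from 0) of the 11 genes that passed in each wild-type (n = 6), heterozygous (het, n = 5) and knockout (n = 5) E11.5 embryo; symbols show the batch and lines the group means. Heterozygous and wild-type embryos overlap for Actn3, Cited1, Sema4g and Shisa2 and for none of the other 7 genes, and Cited1 and Dtna have almost the same mean in heterozygous and knockout kidneys.

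Cited1, a transcriptional co-activator that marks the least committed nephron progenitors, had the largest fitted fall of the 11 genes that passed, close to that of Crym. Its wild-type levels were 3.85, 7.19 and 9.96 CPM at the lowest, median and highest embryo. The 5 heterozygotes had 2.19, 2.57, 2.03, 2.78 and 4.95 CPM. Only heterozygous replicate 5 reached into the wild-type range, above wild-type replicate 3. The log2 change was -1.29 ± 0.19 (SE; edgeR adjusted p = 0.014), which puts the heterozygous level at 41.0% of wild type (30.8 to 54.5). Knockout kidneys averaged 2.93 ± 0.308 CPM (SD, n = 5), against 2.90 ± 1.18 in heterozygotes (n = 5). The difference between knockout and heterozygous kidneys was 0.05 on the log2 scale, with a 95% interval from -0.41 to 0.51 and an adjusted p of 0.938 by edgeR. Crym encodes mu-crystallin, a cytosolic protein that binds thyroid hormone, and is expressed in the early cap. Wild-type kidneys had 22.1, 43.4 and 56.0 CPM at the lowest, median and highest embryo. Heterozygotes had 18.9, 21.2, 20.1, 13.5 and 16.1 CPM. All were below the lowest wild type, which was replicate 3 again, and replicates 1 to 3 were the nearest to it. The fall was -1.27 ± 0.22 (adjusted p = 0.0477, edgeR), the weakest of the 11 by p. Knockouts had 1.48 ± 0.854 CPM, so that heterozygous and knockout kidneys differed in Crym (log2 -3.61, adjusted p = 9.27e-06) where no difference in Cited1 was detected. Over all genes 3.69% differed between these genotypes.

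Actn3 and Dtna were also lower. Actn3 is an alpha-actinin, an actin cross-linker best known from fast muscle fibres. Its wild-type levels were 36.7, 62.9 and 85.9 CPM and its heterozygous levels 36.7, 31.3, 30.5, 38.9 and 38.7 CPM. Wild-type replicate 3, the lowest, lay within the heterozygous range, and the other 5 wild types were well above it. The change was -0.92 ± 0.13 (edgeR adjusted p = 0.00976). Dtna encodes alpha-dystrobrevin, which links the dystrophin complex to signalling proteins under the cell membrane. Wild-type kidneys had 12.5, 15.7 and 18.5 CPM and heterozygotes 8.55, 7.47, 7.50, 10.3 and 8.44. The ranges did not overlap, the change was -0.86 ± 0.13 (adjusted p = 0.0146), and knockouts averaged 8.11 ± 1.74 CPM, beside 8.45 ± 1.15 in heterozygotes. As for Cited1, knockout and heterozygous Dtna levels were not distinguished by edgeR (log2 -0.12, 95% interval -0.43 to 0.19, adjusted p = 0.714).

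Sema4g and Shisa2 act at cell surfaces or on receptors. Shisa2 encodes a protein that holds Wnt and FGF receptors in the endoplasmic reticulum and so dampens both signals. Wild-type kidneys had 27.4, 45.0 and 49.7 CPM and heterozygotes 30.1, 31.5, 27.3, 23.4 and 23.3. The lowest wild type was again replicate 3, and it alone overlapped with heterozygotes. The change was -0.73 ± 0.12 (adjusted p = 0.0281, edgeR), and knockouts averaged 14.8 ± 1.15 CPM. Sema4g, a transmembrane semaphorin gene, had 23.0, 28.2 and 43.6 CPM in wild-type and 23.0, 23.0, 25.6, 15.1 and 16.7 CPM in heterozygous kidneys. Its embryo ranges overlapped, and the embryos run only in batch 2 were the lowest of both genotypes. The genotypes also overlapped within batch 1, where the batch 1 run of heterozygous replicate 1 lay above wild-type replicate 3. The log2 change of Sema4g was -0.34 in batch 1 alone and -0.52 in batch 2 alone. Its call was lost when only the batch 1 run of heterozygous replicate 1 was used. Within batch 2 the lowest wild type, at 23.0 CPM, was above the batch 2 heterozygotes. Its change of -0.56 ± 0.09 (edgeR adjusted p = 0.0206) was the smallest of the 11.

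Moxd1 and Zmat4 complete the lower group. Moxd1 encodes a copper-dependent monooxygenase related to dopamine beta-hydroxylase. It had 51.9, 62.1 and 87.0 CPM in wild-type kidneys and 28.8, 28.7, 33.2, 31.2 and 45.0 CPM in heterozygotes, without overlap. The change was -0.90 ± 0.15 (adjusted p = 0.0373, edgeR). The zinc-finger gene Zmat4 had 21.5, 26.9 and 30.6 CPM in wild-type and 11.8, 15.9, 15.9, 14.6 and 16.3 CPM in heterozygous kidneys. The genotypes did not overlap, the change was -0.79 ± 0.11 (adjusted p = 0.00911), and knockouts averaged 6.46 ± 0.957 CPM. Across the 9 lower genes, wild-type replicate 3 was the lowest wild-type embryo for 6 and lay below the highest heterozygote for 3, and wild-type replicate 6 was the highest wild type for 5.

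Of the 2 higher genes, Adh1 encodes an alcohol dehydrogenase that oxidises ethanol and retinol. Wild-type kidneys had 7.4, 8.92 and 12.3 CPM and heterozygotes 14.9, 13.4, 14.9, 16.3 and 15.9. All heterozygotes were above all wild types, and the rise was 0.71 ± 0.10 (adjusted p = 0.00765, edgeR) or 1.63-fold. Knockout kidneys averaged 11.8 ± 1.83 CPM, between the other genotypes, and the test of knockout against heterozygous kidneys did not pass (log2 -0.31, adjusted p = 0.108). Esr1 is the gene of estrogen receptor alpha, a hormone-activated transcription factor. Its assigned reads numbered 1 to 20 per wild-type embryo and 193 to 546 per heterozygous embryo. The lowest, median and highest wild-type levels were 0.0507, 0.163 and 0.968 CPM, and the heterozygous levels were 13.1, 15.1, 13.0, 10.7 and 12.6 CPM. The heterozygotes were thus far above every wild type and close to each other. The fitted rise was 34.3-fold (95% interval 20.04 to 58.7; log2 5.1 ± 0.37), larger than that of any other gene that passed. Counts per gene symbol do not show which stretch of Esr1, or of a sequence shared with it, the reads came from. Knockouts had 5.76 ± 2.03 CPM, and their difference from heterozygotes did not pass (log2 -0.91, adjusted p = 0.116).

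Relatives of the changed genes mostly did not pass. Among 10 tested genes of the Six2, Eya and Dach families edgeR, DESeq2 and limma-voom each called 0, with 0 at an unadjusted p under 0.05 in edgeR and a median log2 change of 0.00. Of 7 tested Cited genes and partners only Cited1 passed. All 7 were fitted lower, with a median of -0.33 (0.22 in batch 1 alone, -0.75 in batch 2 alone). Cited2 was at -0.13 ± 0.10, and the less abundant Cited4, at -0.57 ± 0.30, had an adjusted p of 0.646. Among the alpha-actinins, Actn1 (0.07 ± 0.05) and Actn4 (-0.02 ± 0.08), the widely expressed forms, did not pass, and Actn3 was the only one of 16 actinin and sarcomere genes that did. Of these 16, 12 were fitted lower, with a median of -0.24 (-0.45 in batch 1 alone, -0.08 in batch 2 alone). An unadjusted p under 0.05 in edgeR was found for 4 of them (25%, against 8.25% of all genes). Likewise only Dtna of 14 dystrophin complex genes, Sema4g of 14 semaphorin and plexin genes, Shisa2 of 7 Shisa genes and Moxd1 of 3 copper monooxygenases passed. Adh1 was the 1 of 16 retinoid and alcohol dehydrogenase genes called, and its relative Adh5 was at 0.13 ± 0.05 (adjusted p = 0.565). Of 8 genes of thyroid hormone handling, Crym passed. The deiodinase gene Dio3, which inactivates thyroid hormone, was at 1.88 ± 0.419 CPM in wild types and 3.27 ± 1.14 in heterozygotes (log2 0.86 ± 0.21, adjusted p = 0.292). Among 17 estrogen receptors and response genes, a list without Esr1, each of the 3 tests called 0, with 3 at an unadjusted p under 0.05 in edgeR and a median of 0.04.

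Most of the nephron progenitor programme did not pass. Of 32 tested progenitor genes, a list without Six2, 2 fell (Cited1 and Crym), 0 rose and 30 did not pass. The list's median log2 change was -0.12, beside 0.01 over all genes, 21 of the 32 were fitted lower, and 11 (34.4%, against 8.25% of all genes) had an unadjusted p under 0.05. The list was chosen with earlier results of these data known, so these counts describe it and are not a test. The 11 include Cited1 and Crym. The genes next in order were Capn6 (-0.46 ± 0.10, adjusted p = 0.148), the R-spondin gene Rspo3 (-0.46 ± 0.11, adjusted p = 0.318) and Traf1 (-0.77 ± 0.21). DESeq2 called Capn6 and Rspo3 as well. Some core regulators of the cap kept intervals around no change. Eya1 was at 0.04 (95% interval -0.25 to 0.34) and Sall1 at 0.05 (-0.35 to 0.45). Wt1 was at 0.06 (-0.18 to 0.31) and Pax2 at 0.00 (-0.57 to 0.58). The Pax2 interval still allows a rise of 1.49-fold or a fall of 32.7%. Its log2 change was 0.74 in batch 1 alone, beyond that interval, and -0.12 in batch 2 alone, and kept its sign in 19 of 29 alternative fits. Sall1 was at 0.49 in batch 1 alone and -0.11 in batch 2 alone. Osr1, at the top of the progenitor hierarchy, was at 41.7 ± 2.31 CPM in wild types and 34.2 ± 3.97 in heterozygotes (log2 -0.23, 95% interval -0.44 to -0.02, adjusted p = 0.579). Meox1 and Spock2, from the fixed set of kidney regulators, also lay lower without passing. Meox1 was at -0.31 ± 0.13 (unadjusted p = 0.0306, adjusted p = 0.570, edgeR) and Spock2 at -0.33 ± 0.16 (adjusted p = 0.608). Both were called lower at E15.5 (log2 -0.50 and -0.22, edgeR adjusted p = 0.00339 and 0.0031).

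None of the tested genes in the lists of GDNF-RET and branching genes, bud trunk genes and cap growth factors passed the test. Gdnf, the cap ligand that draws out the bud, was at 42.01 ± 8.82 CPM in wild types and 44.7 ± 4.90 in heterozygotes, with an interval that allows at most a fall of 16.5% or a rise of 1.29-fold. None of 32 GDNF-RET and branching genes was called by edgeR, DESeq2 or limma-voom, with 4 at an unadjusted p under 0.05 in edgeR, 23 fitted higher and a median of 0.12. The bud tip genes Ret (0.28 ± 0.14) and Wnt11 (0.23 ± 0.12) lay on the higher side and did not pass (adjusted p = 0.618 and 0.626). Gfra1, which encodes the co-receptor that presents GDNF to RET, lay on the lower side at -0.35 ± 0.13 (unadjusted p = 0.0187, adjusted p = 0.557, edgeR). The same 3 tests called 0 of 16 bud trunk genes (2 at an unadjusted p under 0.05 in edgeR; median 0.13, but -0.16 in batch 2 alone) and 0 of 13 growth factor genes of the cap (2 unadjusted, median 0.02). Bmp7, a survival factor for the cap, was at 80.8 ± 13.5 CPM in wild types and 68.7 ± 5.70 in heterozygotes (-0.22 ± 0.10, adjusted p = 0.578).

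Early nephron and cell cycle genes showed no call either. Of 21 genes of the first nephron structures the 3 tests called 0, with 4 at an unadjusted p under 0.05 in edgeR, 11 fitted higher and a median of 0.12, which was 0.28 in batch 1 alone and -0.06 in batch 2 alone. Wnt4, which drives the transition to epithelium, was at 27.5 ± 8.04 CPM in wild types and 30.5 ± 3.94 in heterozygotes (0.12 ± 0.15, adjusted p = 0.846). Its interval allows a rise of up to 1.36-fold, although the log2 change was 0.67 in batch 1 alone, beyond that limit, and -0.25 in batch 2 alone. Replication genes lay slightly high: 28 of 30 were fitted higher, against 53.1% of all genes. Their median was 0.09, but -0.01 in batch 1 alone and 0.03 without heterozygous replicate 5. An unadjusted p under 0.05 in edgeR was found for 9 (30%, against 8.25% of all genes), and edgeR, DESeq2 and limma-voom each called 0. Of 30 genes of mitosis the same tests called 0, with 1 at an unadjusted p under 0.05 in edgeR and a median of 0.06 (-0.07 in batch 1 alone). Mki67, the proliferation marker, was at 834 ± 89.7 CPM in wild types and 854 ± 84.0 in heterozygotes, with an interval that allows a rise of at most 1.16-fold and a fall of at most 5.95%.

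**Figure D2:**
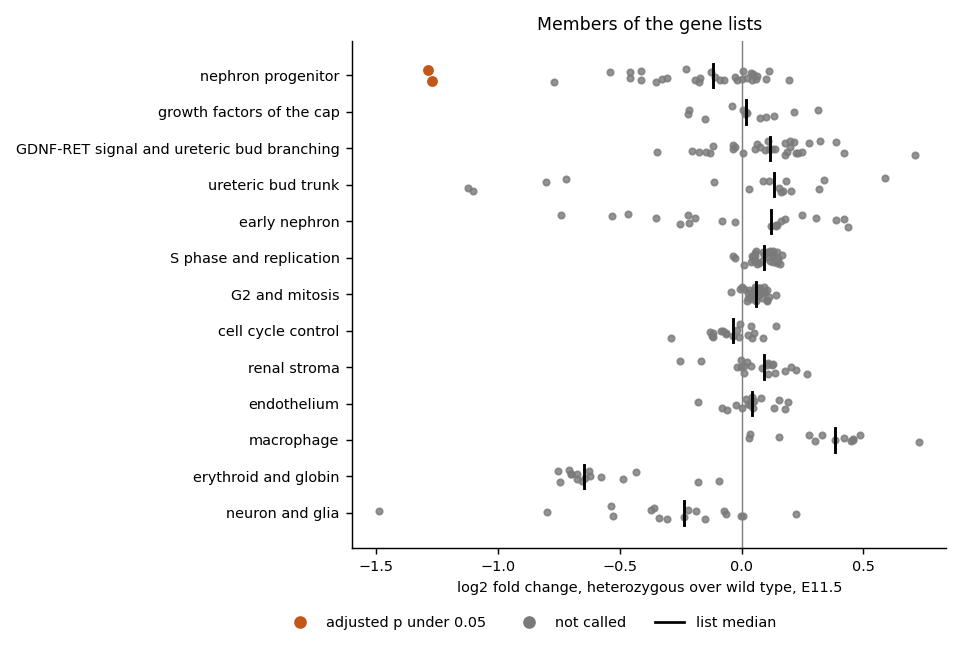
Log2 fold change of heterozygous over wild-type E11.5 kidneys for each tested member of 13 gene lists; each point is a gene, black bars are list medians and orange points passed the test. Only Cited1 and Crym, in the progenitor list, passed; the erythroid list lies to the left, with a median of -0.65, and the macrophage list to the right, with a median of 0.38.

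Genes of other cell types were described in the same way. All 16 erythroid and globin genes were fitted lower (median -0.65), and edgeR, DESeq2 and limma-voom each called 0, with 4 at an unadjusted p under 0.05 in edgeR. Their summed level ran from 2374 to 9737 CPM in wild-type and from 2411 to 5360 CPM in heterozygous kidneys, and wild-type replicate 1 was the highest. Without that embryo the median was -0.26, and it was 0.10 in batch 1 alone and -0.68 in batch 2 alone. Near-identical globin copies such as Hba-a1 and Hba-a2 may share reads. All 13 macrophage genes were fitted higher (median 0.38), with 4 at an unadjusted p under 0.05 and 0 calls by any of the 3 tests. Their summed level was 79.8 to 165 CPM in wild-type and 112 to 205 CPM in heterozygous kidneys, with overlap. Of 17 neuron and glia genes 15 were fitted lower (median -0.23, with -0.64 in batch 1 alone and -0.03 in batch 2 alone). Each of the 3 tests called 0 of them, with 1 at an unadjusted p under 0.05 in edgeR. Wild-type replicate 6, a batch 2 embryo, carried the most Fabp7, 14.3 CPM of its library total against at most 1.33 in any heterozygote. The summed level of the list was highest in wild-type replicate 3, at 360 CPM. The part of these cell types in the calls was not tested. All 11 genes were also called without wild-type replicate 6, a fit that does not address the other embryos.

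The 12 genes next in order of p missed the threshold with adjusted p values from 0.0804 to 0.148. Rasef, a small GTPase gene, was at 23.6, 36.1 and 49.2 CPM in the lowest, median and highest wild type. Heterozygotes had 21.2, 27.9, 31.5, 16.5 and 15.2 CPM, with overlap through wild-type replicate 3. Its log2 change was -0.87 ± 0.16. The claudin gene Cldn9, a tight junction component, had no overlap: 8.76, 11.6 and 15.01 CPM in wild-type and 6.87, 7.52, 7.70, 7.10 and 7.85 CPM in heterozygous kidneys (-0.72 ± 0.14, adjusted p = 0.102). The others fitted lower were Stk32a, Gnb3, Sypl2, Adam11, Cpa1, Rpph1 and Capn6. Those fitted higher were the protocadherin gene Pcdh19 (0.61 ± 0.12), the neurturin receptor gene Gfra2 (0.78 ± 0.16) and Anks1b (0.99 ± 0.20).

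The E15.5 kidneys are separate specimens, so they give values for the same genes that the E11.5 calls did not use. At E15.5, 104 of 18244 genes tested (0.57%) differed between heterozygous and wild-type kidneys. All 11 genes called at E11.5 had the same sign at E15.5, and 9 of them passed there too: Six2, Esr1, Actn3, Cited1, Dtna, Sema4g, Shisa2, Moxd1 and Crym. Adh1 and Zmat4 did not pass. Leaving aside Esr1 and Six2, the gene that defines the groups at both stages, 7 of 9 passed. Of the 11, 9 were called in each of 8 fits that left out 1 E15.5 specimen. Of all 15977 genes tested at both stages, 61.0% had the same sign. Cited1 was at 42.1 ± 1.11 CPM in E15.5 wild-type kidneys (SD, n = 4) and at 14 ± 0.577 in heterozygotes (n = 4), 33.2% of wild type, beside 41.0% at E11.5. Crym was at 61.2 ± 1.19 and 36.7 ± 1.92 CPM, 60.0% of wild type, beside 41.4% at E11.5. Actn3 was at 16.4 ± 0.343 and 7.10 ± 0.532 CPM, 43.2% beside 52.7%.

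**Figure D3:**
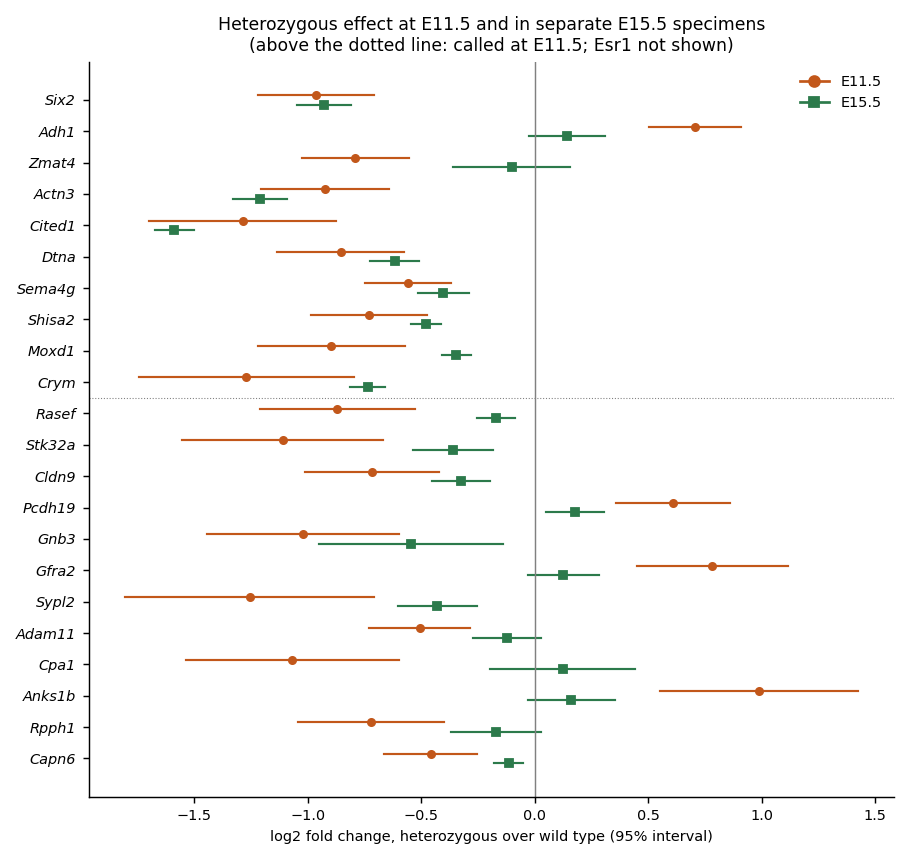
Log2 fold change with 95% interval of heterozygous over wild-type kidneys at E11.5 (orange circles; 6 and 5 embryos) and E15.5 (green squares; 4 and 4 specimens), for Six2, 9 of the other called genes and the 12 next in order of p. Above the dotted line all intervals at E15.5 stay clear of 0 except those of Adh1 and Zmat4; of the 12 genes below it only Cpa1 changes sign.

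A difference between the stages needs its own test. Among the 11 genes only Esr1 passed it (E15.5 minus E11.5, log2 -3.93, adjusted p = 2.99e-05, edgeR), as the 1 gene called of 17235 tested (0.0058%). In CPM, on stages scaled separately, the heterozygous mean of Esr1 counts exceeded the wild-type mean by 12.6 at E11.5 and by 9.998 at E15.5, a difference in excess that was not tested. At E15.5 wild-type kidneys had 7.202 to 8.12 CPM and heterozygotes 17.2 to 17.9. Zmat4 was at 1.61 ± 0.144 CPM in E15.5 wild-type kidneys, beside 26.5 ± 4.06 at E11.5 (the stages were scaled separately), and its heterozygous change was -0.10 ± 0.12. Adh1 was at 14.1 ± 0.170 CPM in E15.5 wild-type kidneys and at 15.5 ± 2.39 in heterozygotes. The tests of a difference between stages for these 2 gave adjusted p values of 0.958 each, which does not show that their effects are alike.

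Genes short of the threshold at E11.5 also leaned the same way later. Of the 12 next in order of p, 11 had the same sign at E15.5 and 2, Cldn9 and Sypl2, passed. The first 100 below the threshold include these 12. Of the 98 with a value at E15.5, 89 had the same sign (90.8%) and 13 passed, all 13 with the same sign. Over the 1302 with an unadjusted p under 0.05 that were not called, which include these 98, 76.7% had the same sign. Over all 15977 genes tested at both stages, 61.0% had the same sign and 0.576% passed at E15.5 with the same sign. Read from E15.5, where 66 genes (0.362% of those tested) were lower, 62 of the 64 tested at E11.5 were fitted lower there (96.9%, against 46.7% of all genes), with a median log2 change of -0.32 and 8 calls. Among these 64, the doublecortin gene Dcx (-1.31 ± 0.33, adjusted p = 0.328) and Cutal (-0.90 ± 0.20, adjusted p = 0.200) were not called at E11.5. Of the 38 genes higher at E15.5 (0.208%), 37 were tested at E11.5 and 30 were fitted higher there (81.1%, against 53.3% of all genes), with a median of 0.12 and 1 call. Among those fitted lower at E11.5 were Col12a1, Ngfr, Evpl and the globin gene Hbb-bs, which was at -0.43 ± 0.47. The cap regulator Eya1 was called at E15.5 (0.28, adjusted p = 0.00137) and was at 0.04 at E11.5. Six2 is counted among the 62 genes lower at both stages, and Esr1 among the 30 higher at both.

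**Figure D4:**
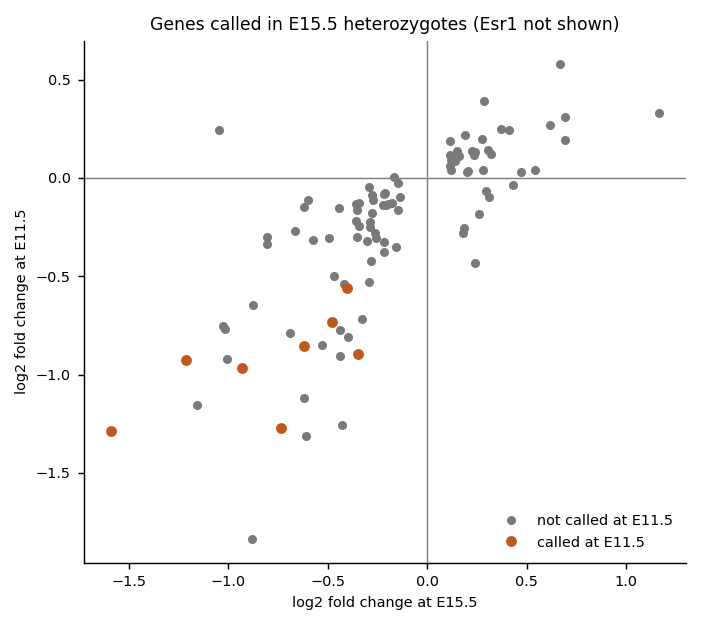
Log2 fold change of heterozygous over wild-type kidneys at E11.5 (vertical) against E15.5 (horizontal) for the genes called at E15.5 and tested at both stages; each point is a gene and orange points also passed at E11.5. Of the genes lower at E15.5, 62 of 64 lie below the horizontal zero line, and of the genes higher at E15.5, counting Esr1, which is not shown, 30 of 37 are above it.

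The size of each change at E11.5 was steadier than its call. All 11 genes kept their sign in all 29 alternative fits. The calls depended on single embryos: without heterozygous replicate 4 only Esr1 passed, and without wild-type replicate 2 only Esr1, Six2 and Adh1 did. Without heterozygous replicate 1, 2, 3 or 5 the number of the 11 that passed was 7, 6, 5 and 5, and without wild-type replicate 1, 4 or 5 it was 8, 5 and 9. All 11 passed without wild-type replicate 3 or 6. Among the 11 fits without 1 embryo, Six2 lost its call only without heterozygous replicate 4 (adjusted p = 0.0596), where its log2 change was -0.92. Adh1 lost its own there only as well (0.0596), and Zmat4 there and without wild-type replicate 2. Of the 18 other settings, 5 ended the call of Six2, 6 that of Adh1 and 5 that of Zmat4; in all, 111 of the 319 alternative values of the 11 genes lost the call. In the fit of only the 11 wild-type and heterozygous embryos 5 of the 11 passed, without Actn3, Adh1, Cited1, Sema4g, Shisa2 and Zmat4. Crym and Shisa2 each lost their calls in 9 of 11 such fits, Moxd1 in 8, Dtna and Sema4g in 6, Cited1 in 5 and Actn3 in 3. Over these fits the Cited1 change ran from -1.52 to -1.18 and that of Crym from -1.39 to -1.15.

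**Figure D5:**
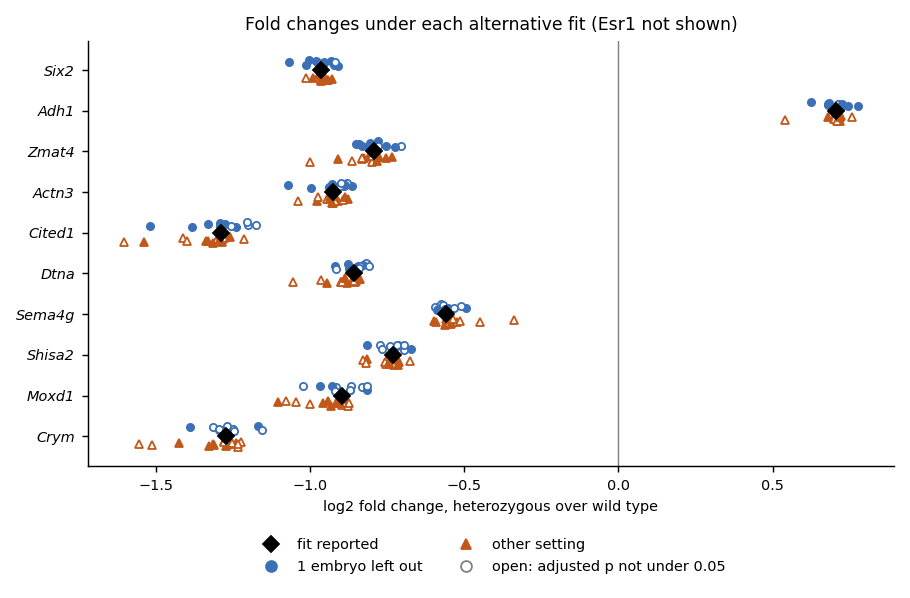
Log2 fold change of 10 of the called genes at E11.5 under each alternative: black diamonds are the reported fit, blue circles the 11 fits without 1 embryo, orange triangles the 18 other settings, and open symbols fits in which the adjusted p was not under 0.05. Every point of the 9 lower genes lies below 0 and every Adh1 point above 0, while open symbols are most frequent for Crym, Moxd1 and Shisa2.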

How the data were processed

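RNA was extracted from snap-frozen kidneys and sequenced with standard Illumina libraries, per the labels' protocols. Values are whole-number read counts as deposited, for 35349 gene symbols and 33 libraries, and 0 columns were left unused. STAR 2.4.0h1, featureCounts 1.4.6 and mm10 are named per the submitters' processing notes; strandedness and the handling of multiply mapped reads are not given in the sources used here. GENCODE vM21 gave identifiers and positions for 32405 symbols, and for 852 more through an older symbol, while 2092 had none.

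The runs of the 1 heterozygous embryo with a library in each batch, paired by title, were summed. Their deviations from the group and batch means correlated at 0.451, against at most -0.04 with another heterozygous library of the other batch, though 1 other pair among the 12 libraries reached 0.480. Counts of all 16 E11.5 embryos were fitted with edgeR 4.0.16 (R 4.3.3, limma 3.58.1, DESeq2 1.42.0): filterByExpr (minimum count 10, minimum total 15), TMM scaling, a quasi-likelihood F test with genotype, sex and batch, and Benjamini-Hochberg adjustment at 0.05 over all genes tested. Batch is the replicate number of the titles and so the replicate block; the embryo run in both batches was coded 0.5. E15.5 counts, summed over the runs of a specimen, were fitted to genotype and sex, and the difference between stages to 19 specimens. "Fitted" higher or lower means the sign of the log2 change whatever its p. Ribosomal genes were 360 symbols, 5 of them added by hand after the counts were seen. Only the main E11.5 edgeR fit was tried on simulated counts, which held no batch or sex effects and so do not test how the fit handles these.

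The genes, the 30 lists (488 genes, 6 absent from the table, 431 tested; 29 lists with 2 or more tested genes) and the rules were chosen with earlier results of these data known. The lists hold known relatives of genes called earlier and are described by counts and medians only. Named genes were Six2, every gene called, the 12 next in order of p, a fixed set of kidney regulators, up to 4 members per list with an unadjusted p under 0.05, and relatives of the called genes in the lists. Tubb3, Fabp7, Cdx2, Afp, Alb, Col2a1, Myod1, Zic1, Wnt7a, Dcx, Cutal and Gm29418 were singled out after their values were seen. So were the genes named as higher at E15.5 but fitted lower at E11.5. The alternatives were DESeq2, limma-voom, a robust spread, other scaling, other filters, other covariates, single batches, single runs and leaving out each embryo.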

Additional observations from a re-analysis of the deposited data

Results flagged for a closer look

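Each group of 4 to 10 specimens was examined for a specimen far from the rest (Dixon's test at 95%), for the called genes at both stages and the summed levels of the lists. Of 60 groups tested 7 had one, where chance gives about 1 in 20. Wild-type replicate 5 was the highest wild type for Adh1, at 12.3 CPM. Heterozygous replicate 5 was the highest heterozygote for Cited1, at 4.95 CPM, and for Moxd1, at 45.0 CPM. Wild-type replicate 3 was the lowest wild type for Shisa2, at 27.4 CPM, and wild-type replicate 6 the highest for Moxd1, at 87.0 CPM. Among E15.5 heterozygotes, replicate 1 was the lowest for Crym, at 33.9 CPM. Heterozygous replicate 3 had the highest summed level of erythroid and globin genes among heterozygotes, at 5360 CPM. The heterozygous effect on Esr1 counts differed between the stages by the test of the difference itself (E15.5 minus E11.5, log2 -3.93).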

How the results depend on the processing

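The 11 called genes kept their direction in every alternative fit at E11.5 and did not keep their calls; of the 82 other named genes, 19 changed sign in at least 1. The 11 genes called at E11.5 became 43 with DESeq2 and 32 without a filter on low counts (all 11 among both), 13 with limma-voom, 12 without ribosomal genes, 7 with batch as 3 levels (all among the 11) and 6 with only the 11 wild-type and heterozygous embryos (5 among the 11, and Rpph1). Without the replicate block (batch left out) 1 gene, Esr1, was called. Without the libraries above 5% ribosomal counts it was 1, in batch 2 alone 2 (Esr1 and Gm10800), and in batch 1 alone 0, where 1066 genes had an unadjusted p under 0.05 in edgeR. The limit of 5% removed every batch 1 wild-type library (20.5 to 26.6%), so the wild types left in that fit were all of batch 2. With the title prefix, whose meaning the labels do not give, as block in place of batch, 13 genes were called, 8 of them among the 11. Leaving out 1 embryo gave 1 (without heterozygous replicate 4) to 17 (without wild-type replicate 3). Six2 was at -1.01 without the replicate block (adjusted p = 0.111), -0.95 with the title prefix (0.0573), -0.95 in batch 1 alone (0.701), -0.95 in batch 2 alone (0.241) and -0.96 on leaving out libraries with over 5% ribosomal counts (0.0778), and ran from -1.07 to -0.91 with 1 embryo left out. The cause was not tested. Smaller fits have fewer embryos. At E15.5, 8 of the 11 were called from batch 2 runs alone, without Sema4g (adjusted p = 0.0603). Over the 319 combinations of called gene and alternative at E11.5, those above included, 111 lost the call, and over the 2369 of the other named genes 35 gained one. List medians moved by more than the spread between wild-type embryos in 42 of 836 comparisons.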
